A study of Homo sapiens with 8 samples.

Results

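The genes described here are the receptors for insulin-like growth factors and insulin (IGF1R and INSR), the adaptor proteins IRS1 and IRS2 that dock on these receptors, and the secreted IGF binding proteins IGFBP2, IGFBP3, IGFBP4, IGFBP5, IGFBP6 and IGFBP7. They were taken by gene symbol from the rows of the deposited expression table, and all 10 were found among its 17546 genes. Poly(A) RNA was sequenced in 8 libraries of H1, a line of human embryonic stem cells kept in serum-free PGM1 medium on Matrigel. In 4 libraries the cells carried an shRNA against NAT10, the enzyme that writes N4-acetylcytidine (ac4C) on RNA, and in the other 4 they carried a negative control shRNA. Both groups were transduced with GFP-marked lentivirus in the GV112 vector and cultured for 48 h, after which the GFP+ cells were selected and grown on with puromycin at 0.5 ug/ml in TeSR-E8 medium. H1 is a single line, there was no group with NAT10 restored, and the labels do not say how many shRNAs were used, so a loss of NAT10 and any other action of the shRNA cannot be told apart. The labels also do not say that the replicates were separate cultures, so a p-value measures no more than library-to-library spread, part or all of which may be technical.

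IGF1R and INSR are receptor tyrosine kinases that phosphorylate IRS1 and IRS2, and these recruit PI3-kinase and start AKT and mTOR signalling, while a second branch runs through RAS and ERK. The IGFBPs bind IGFs outside the cell with high affinity, hold them away from IGF1R or carry them to the cell surface, and release them when they are cut by proteases; IGFBP7 binds IGFs only weakly. Human pluripotent stem cells depend on IGF or insulin in defined media, and TeSR-E8 contains insulin.

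The libraries held between 15574631 and 16305014 reads over the genes of the table. NAT10 stood at 1647, 1592, 1625 and 1644 normalized counts in the knockdown libraries, against 2207, 2285, 2048 and 2173 in the control libraries, so every knockdown library lay below every control library. Its mean was 1627 ± 25.5 in knockdown and 2178 ± 98.8 in control cells (SD, n = 4 each), which leaves 74.7% of the control level (log2 fold change -0.42, SE 0.0378, limma adjusted p = 5.88e-14; two-sided exact permutation p = 0.0286, the smallest that 4 against 4 libraries can give). All 15 pluripotency markers were measured, with summed levels of 159850 to 165026 normalized counts in knockdown and 127189 to 131414 in control libraries. Of the defining ones, SOX2 averaged 8068 in knockdown and 6231 in control cells, NANOG 569 in knockdown and 543 in control cells, and POU5F1 as little as 17.2 in knockdown and 24.0 in control cells. POU5F1 has near-identical pseudogene copies, so its count is uncertain. Across the table limma called 64.7% of genes changed, 32.3% higher and 32.4% lower in the knockdown.

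Of the 10 genes, 6 were higher in the knockdown (IRS1, IRS2, IGFBP3, IGFBP5, IGFBP6 and IGFBP7), 2 were lower (IGFBP2 and IGFBP4) and 2, the receptors, did not pass the test. A count of 8 called among 10 stands beside the 64.7% called among all genes. Likewise the knockdown and control libraries did not overlap for 8 of the 10, against 56.7% of all genes. The knockdown lay wholly above control for 6, against 28.4% of all genes, and wholly below it for 2, against 28.3%. The sizes of the changes set the genes apart from each other more than the counts do. IGFBP3, IGFBP5, IGFBP6 and IGFBP7 rose at least 2-fold, which 3.36% of all genes did, and IGFBP4 fell at least 2-fold, as 6.23% of all genes did. IGFBP7 passed 2-fold narrowly and lies under it in some alternatives. The median absolute log2 fold change was 0.66 for the 10 genes and 0.30 for all genes. In bulk RNA, fewer cells that express a gene and less of its RNA per cell cannot be told apart.

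**Figure D1:**
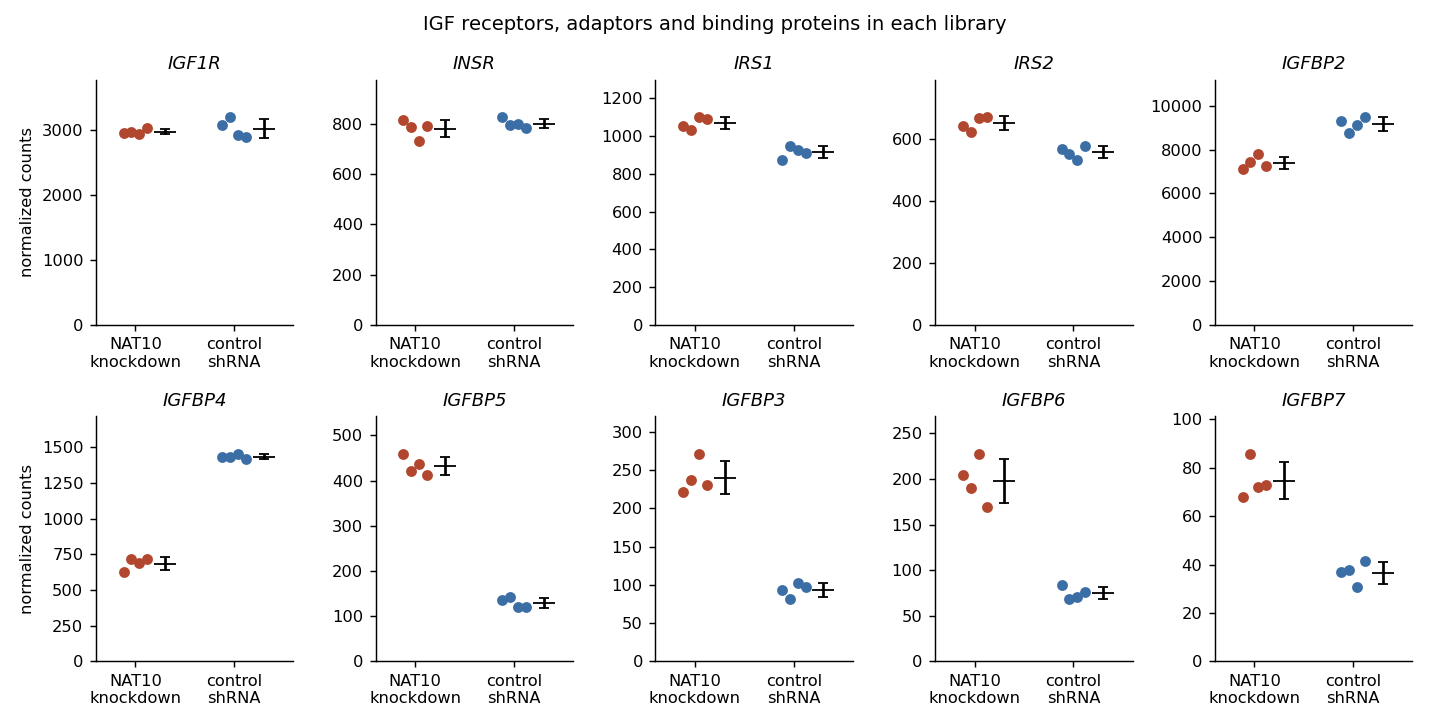
Normalized counts of each of the 10 genes in each library, knockdown left and control right, with the mean and SD of 4 libraries as bars and each axis starting at 0. IGF1R and INSR overlap between the groups, while the other 8 genes show no overlap.

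The sequences of interest for NAT10 are runs of base triplets that each open with a cytidine (CNN repeats), which have been reported around ac4C sites in human mRNA, and the binding proteins differed widely in them. In the longest coding transcript of each gene in GENCODE 29, the longest such run was 18 triplets in IGFBP4, at bases 860 to 913 of the transcript, and 16 in IGFBP2, at bases 157 to 204. Runs at least this long were found in 1.55% and 2.46% of the 13782 genes with such a transcript. IGFBP6 had a run of 9 triplets, IGFBP5 and IGFBP7 of 8 and IGFBP3 of 6, close to the median of 7 over all genes. The runs are shown with a capital C at the opening base of each triplet.
IGFBP4: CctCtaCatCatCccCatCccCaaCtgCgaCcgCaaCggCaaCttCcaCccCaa
IGFBP2: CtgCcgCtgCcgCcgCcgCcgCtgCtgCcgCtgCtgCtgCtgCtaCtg
IGFBP6: CtgCtgCcaCcgCtgCtgCtgCtgCta
IGFBP5: CcaCacCttCgaCagCagCaaCgt
IGFBP7: CtgCtgCtcCtgCtcCtgCccCtc
IGFBP3: CagCgcCgcCagCtcCag
The binding proteins with the longest runs, IGFBP4 and IGFBP2, were the ones that fell. IRS1 and IRS2 held runs of 18 and 16 triplets, in their 5′ UTRs, and both rose. Over the table, of the 339 genes with at least 16 triplets 38.6% were higher and 32.7% lower in the knockdown (median log2 fold change 0.02). Of the 13443 others 36.1% were higher and 33.5% lower (median 0.01). These sets also differ in length, with median transcripts of 5232 and 3455 bases. A part of the runs in the changes was not tested. The files hold no ac4C measurement used here, so a run is a description of the sequence and not an acetylated site.

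Under the authors' scaling the receptors were the 2 of the 10 genes that did not pass the test. IGF1R (ENSG00000140443, chr15:98648539-98964530, plus strand, hg38) stood at 2965, 2978, 2945 and 3038 normalized counts in the knockdown libraries and 3089, 3204, 2922 and 2891 in the control libraries. The groups overlapped, with the highest and the lowest value both in control libraries. Its log2 fold change was -0.02 (SE 0.0354, limma adjusted p = 0.632), and the 95% interval ran from 0.939-fold to 1.04-fold of control. INSR (ENSG00000171105, chr19:7112255-7294034, minus strand) stood at 815, 790.2, 735 and 792 normalized counts in the knockdown libraries and 829, 799, 801 and 784 in the control libraries. These values also overlapped, and the log2 fold change of -0.04 (SE 0.0463, limma adjusted p = 0.498) had a 95% interval from 0.914-fold to 1.04-fold of control. The missed threshold does not show equal levels, but a change of either receptor beyond about these bounds was not seen under the authors' scaling. With library totals as the scaling, which moved the median of all genes by -0.11 on the log2 scale, IGF1R had a log2 fold change of -0.13 (limma adjusted p = 0.00113) and INSR of -0.15 (limma adjusted p = 0.00517), both close to that shift, and their knockdown libraries then lay wholly below the control libraries. The ratio of IGF1R to INSR per exon length, which no scaling moves, was 2.86 ± 0.116 in knockdown and 2.83 ± 0.123 in control cells (SD, n = 4 each), with overlapping libraries.

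IRAIN, a noncoding RNA gene whose annotated body lies 1.167 kb from that of IGF1R, was at 16.5, 30.6, 25.4 and 16.4 normalized counts in the knockdown libraries, against 43.5, 61.4, 48.8 and 41.4 in the control libraries. It was chosen after its values were seen. All 4 knockdown values lay below all control values, and the log2 fold change was -1.13 (SE 0.196, limma adjusted p = 1.67e-06), next to a receptor gene that showed no call.

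Both adaptors rose by a small and similar amount. IRS1 (ENSG00000169047, chr2:226731317-226799759, minus strand), the first described docking protein of the insulin receptor, had 1052, 1031, 1101 and 1093 normalized counts in the knockdown libraries and 872, 945, 929 and 911 in the control libraries. No knockdown library was as low as any control library, and the means of 1069.5 ± 33.4 and 914 ± 31.5 (SD, n = 4 each) gave a 1.17-fold rise (log2 fold change 0.23, SE 0.0432, limma adjusted p = 1.03e-05). IRS2 (ENSG00000185950, chr13:109752698-109786568, minus strand), its close relative, had 643, 623, 669 and 672 normalized counts in the knockdown libraries and 568, 553, 534 and 579 in the control libraries. These groups did not overlap either, and the means of 652 ± 23.0 in knockdown and 559 ± 19.5 in control cells gave the same 1.17-fold rise (log2 fold change 0.22, SE 0.0505, limma adjusted p = 0.000149). The ratio of IRS1 to IRS2 per exon length was 1.34 ± 0.0103 in knockdown and 1.34 ± 0.0816 in control cells (SD, n = 4 each). In absolute terms these are modest changes: 59.7% of all genes changed more than IRS1 and 60.4% more than IRS2. Under library totals both calls held, at log2 fold changes of 0.12 for IRS1 (limma adjusted p = 0.016) and 0.11 for IRS2 (limma adjusted p = 0.0455), but the IRS2 groups then overlapped.

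**Figure D2:**
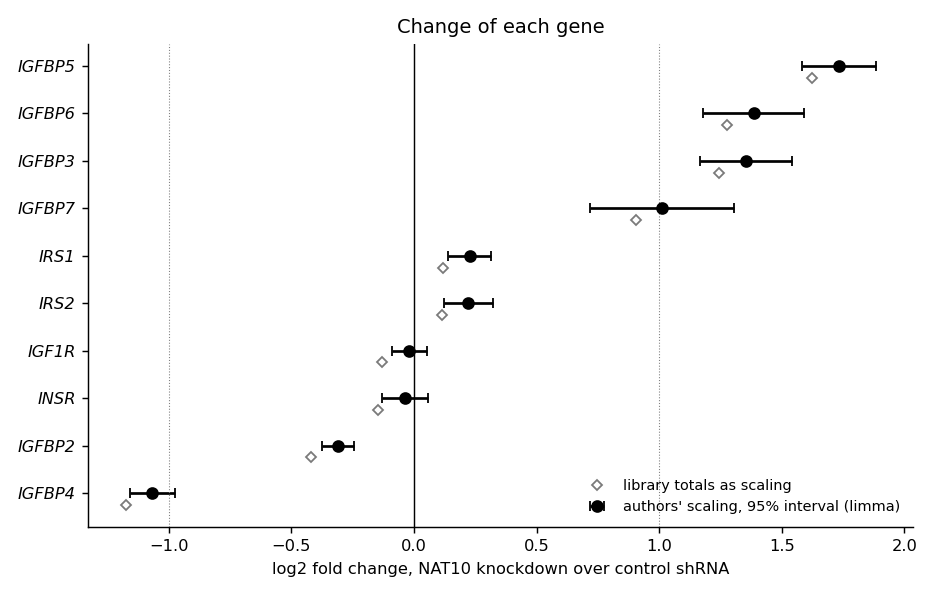
Log2 fold change of each gene, knockdown over control, with its 95% interval from limma (n = 4 libraries per group) and, as diamonds, the same value with library totals as the scaling. Values run from -1.07 for IGFBP4 to 1.73 for IGFBP5, and the intervals of IGF1R and INSR hold 0.

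Among the binding proteins the most abundant fell and the scarce ones rose. IGFBP2 (ENSG00000115457, chr2:216632828-216664436, plus strand), a binding protein widely made by embryonic and neural cells, had 7126, 7427, 7787 and 7259 normalized counts in the knockdown libraries, against 9297, 8756, 9149.5 and 9490.4 in the control libraries. All knockdown values lay below all control values. The means of 7399.9 ± 286 in knockdown and 9173 ± 311 in control cells (SD, n = 4 each) put the knockdown at 0.807 of control (log2 fold change -0.31, SE 0.0316, limma adjusted p = 3.11e-12). IGFBP4 (ENSG00000141753, chr17:40443461-40457731, plus strand), an inhibitor of IGF action that is inactivated when the protease PAPPA cuts it, had 623, 716, 687 and 715 normalized counts in the knockdown libraries and 1431, 1434, 1454 and 1418 in the control libraries. The groups stood far apart, and the control libraries were so alike that their coefficient of variation was 1.03%, below the 2.60% that counting error alone gives. The means of 685 ± 43.6 and 1434 ± 14.7 (SD, n = 4 each) were a 2.09-fold fall in the knockdown (log2 fold change -1.07, SE 0.0447, limma adjusted p = 1.27e-26).

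IGFBP5 (ENSG00000115461, chr2:216672105-216695525, minus strand), a binding protein that attaches to extracellular matrix, rose the most. It had 459, 421, 436 and 413 normalized counts in the knockdown libraries, against 136, 143, 121 and 119 in the control libraries. The lowest knockdown library was well above the highest control library, and the means of 432 ± 20.2 and 129.8 ± 11.6 (SD, n = 4 each) were a 3.33-fold rise (log2 fold change 1.73, SE 0.0750, limma adjusted p = 5.02e-26). A change of this size or more in either direction was found in 2.06% of all genes. IGFBP5 lies 7.668 kb from IGFBP2 on the opposite strand, and these neighbours changed in opposite directions.

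IGFBP3 (ENSG00000146674, chr7:45912245-45921874, minus strand), the main carrier of IGFs in blood, had 221, 237, 271 and 231 normalized counts in the knockdown libraries and 92.8, 81.3, 102 and 97.2 in the control libraries. IGFBP6 (ENSG00000167779, chr12:53097436-53102345, plus strand), which prefers IGF2 over IGF1, had 204, 189.9, 228 and 169 normalized counts in the knockdown libraries and 84.1, 68.4, 70.9 and 76.0 in the control libraries. For both genes every knockdown library exceeded every control library. IGFBP3 averaged 240.1 ± 21.8 in knockdown and 93.4 ± 9.02 in control cells (SD, n = 4 each), a 2.57-fold rise (log2 fold change 1.35, SE 0.0929, limma adjusted p = 4.06e-18). IGFBP6 averaged 198 ± 24.5 in knockdown and 74.9 ± 6.95 in control cells (SD, n = 4 each), a 2.64-fold rise (log2 fold change 1.39, SE 0.103, limma adjusted p = 7.56e-17). Of the 10 genes IGFBP6 varied most among knockdown libraries, with a coefficient of variation of 12.4% where counting error gives 7.19%.

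IGFBP7 (ENSG00000163453, chr4:57030773-57110385, minus strand), the weak IGF binder, was the least abundant of the 10 genes and had the largest SE. It had 67.9, 85.8, 72.1 and 72.8 normalized counts in the knockdown libraries and 36.7, 37.7, 30.6 and 41.4 in the control libraries. The groups did not overlap, and the means of 74.7 ± 7.70 and 36.6 ± 4.46 (SD, n = 4 each) were a 2.04-fold rise (log2 fold change 1.01, SE 0.146, limma adjusted p = 3.75e-08). The 95% interval ran from 1.64-fold to 2.47-fold, and the log2 fold change was 0.90 with library totals and 0.93 without control replicate 3, both under 2-fold. Its mean over the libraries was 3.43 CPM (counts scaled to a common library total), so it is lost under a filter of 5 CPM. IGFBP7 shares 270 exon bases with POLR2B, an RNA polymerase II subunit gene on the opposite strand, and the strand setting of the counting is not given in the sources used here, so reads there cannot be assigned to either gene with certainty. POLR2B itself averaged 2922 ± 73.1 normalized counts in knockdown and 2668 ± 37.1 in control cells (SD, n = 4 each; log2 fold change 0.13, SE 0.0342, limma adjusted p = 0.00083); with library totals its log2 fold change was 0.02 (limma adjusted p = 0.588).

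The 250 bases before the RefSeq start of IGFBP5, IGFBP3, IGFBP6 and IGFBP4 are shown because these were the binding proteins with the largest changes in either direction. Of the 10 genes, 9 had a window in the RefSeq table (GRCh38.p14), and IGFBP7 was not matched. The windows were searched on both strands for TATAAA (a form of the TATA box), GGGCGG (the GC box) and GTAAACA (the forkhead motif of FOXO factors). CACGTG (the E-box) and TGANTCA (the AP-1 motif) were searched likewise. Only exact matches were counted, so a window without TATAAA may still hold a variant of it. AT-rich stretches near the ends of the IGFBP5 and IGFBP3 windows are therefore unmarked. Capitals mark the matches, which do not overlap one another in these windows. Sequences run 5′ to 3′ on the strand of the gene.
IGFBP5, chr2:216695550-216695799, minus strand: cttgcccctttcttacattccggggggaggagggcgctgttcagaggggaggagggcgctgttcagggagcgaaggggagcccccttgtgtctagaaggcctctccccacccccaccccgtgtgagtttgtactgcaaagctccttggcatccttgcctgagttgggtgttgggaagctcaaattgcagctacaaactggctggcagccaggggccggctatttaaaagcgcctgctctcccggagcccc
IGFBP3, chr7:45921273-45921522, minus strand: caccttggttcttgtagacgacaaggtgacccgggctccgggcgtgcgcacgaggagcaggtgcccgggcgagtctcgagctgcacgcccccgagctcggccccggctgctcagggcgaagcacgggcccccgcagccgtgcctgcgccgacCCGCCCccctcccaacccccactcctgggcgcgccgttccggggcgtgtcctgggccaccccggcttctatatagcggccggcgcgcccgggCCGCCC
IGFBP6, chr12:53097417-53097666, plus strand: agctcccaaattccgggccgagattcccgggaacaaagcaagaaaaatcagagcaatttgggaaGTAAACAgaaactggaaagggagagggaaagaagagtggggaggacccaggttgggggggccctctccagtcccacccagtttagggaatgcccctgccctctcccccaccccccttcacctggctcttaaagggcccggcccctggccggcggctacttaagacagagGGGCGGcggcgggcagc
IGFBP4, chr17:40443200-40443449, plus strand: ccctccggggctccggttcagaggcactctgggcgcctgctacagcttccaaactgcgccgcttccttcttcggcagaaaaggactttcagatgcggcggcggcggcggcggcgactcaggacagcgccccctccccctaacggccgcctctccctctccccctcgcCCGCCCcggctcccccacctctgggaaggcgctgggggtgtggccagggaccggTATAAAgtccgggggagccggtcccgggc
IGFBP4 held TATAAA starting at -29 from the RefSeq start, and GGGCGG at -83. TATAAA was in 10.7% of 35116 windows of the same length. IGFBP3 held GGGCGG at -98 and -6, and IGFBP6 held it at -17. The RefSeq starts of these genes differ from the GENCODE positions given above. By those positions the IGFBP3 window lies inside its gene, as does most of the IGFBP6 window. GGGCGG was in a window of 8 of the 9 genes, IGFBP5 being the exception, and in 42.6% of all windows. The forkhead motif was found in IGFBP6 at -186 and in 2.98% of all windows. CACGTG and TGANTCA, present in 6.34% and 6.57% of all windows, were in none of these genes' windows. The letters found differ between genes that moved the same way, and a match is not evidence of binding.

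Per exon length, levels can be set between genes. In RPKM (table reads of the gene, scaled by its exon length and by the library total), IGFBP2 was the highest at 93.3 ± 3.93 in knockdown and 125 ± 4.17 in control cells (SD, n = 4 each). IGFBP4 followed at 18.7 ± 1.21 RPKM in knockdown and 42.3 ± 0.608 RPKM in control cells, and IGF1R came after it at 12.9 ± 0.148 RPKM in knockdown and 14.1 ± 0.652 RPKM in control cells. These places were the same in both groups, with no overlap between neighbours. In control cells the adaptors and INSR came next, and IGFBP6, IGFBP3, IGFBP5 and IGFBP7 stood last, at 3.60 ± 0.321, 1.33 ± 0.132, 1.31 ± 0.113 and 1.23 ± 0.146 RPKM. Control libraries of IGFBP3 and IGFBP5, and of IGFBP5 and IGFBP7, overlapped, so these last places have no fixed order. In knockdown cells IGFBP6, at 8.83 ± 1.116 RPKM, stood above IRS1 at 6.46 ± 0.207 RPKM. IGFBP5, at 4.03 ± 0.187 RPKM in the knockdown, overlapped INSR at 4.50 ± 0.184 RPKM, and INSR overlapped IRS2 at 4.81 ± 0.171 RPKM. The lowest in the knockdown were IGFBP3 and IGFBP7, at 3.16 ± 0.297 and 2.33 ± 0.244 RPKM. The place of IGFBP3 depends on the length used. With its longest transcript as the length of each gene, knockdown IGFBP3 stood at 5.98 ± 0.562 RPKM. That was above INSR at 5.26 ± 0.215 and IGFBP5 at 4.18 ± 0.194 RPKM. In control cells IGFBP3, at 2.51 ± 0.250 RPKM, then no longer overlapped IGFBP5 at 1.35 ± 0.117 RPKM.

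The total binding protein RNA fell while its makeup shifted. The summed level of the 6 IGFBPs was 124.9, 132, 138 and 127 RPKM in the knockdown libraries and 176, 168, 175.5 and 178 in the control libraries. No knockdown library reached a control library, and the mean fell by 25.3% to 130.4 ± 5.54 RPKM in knockdown cells, against 174 ± 4.27 in control cells (SD, n = 4 each); with the authors' size factors, chosen as an alternative after the data were seen, it fell by 19.4%. IGFBP2 made up 71.6% ± 0.205 of this sum in knockdown and 71.5% ± 0.676 in control cells, and the libraries overlapped. The share was also taken with the longest transcript in place of the union of exons as the length. It was then 70.5% ± 0.209 in knockdown and 72.2% ± 0.619 in control cells, and the libraries no longer overlapped. The longest coding transcript of IGFBP2 has only 1439 bases, against 4767 in its union of exons and 4414 in its longest transcript. Levels per coding transcript were not computed, so its level, its share, its ratios to other genes and the sums that include it may be understated.

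The larger shift lay within the other 5 binding proteins. IGFBP4 made up 48.0%, 51.8%, 48.4% and 53.9% of their summed level in the knockdown libraries, against 84.1%, 85.5%, 85.8% and 84.6% in the control libraries. The groups were far apart, with means of 50.5% ± 2.82 in knockdown and 85.0% ± 0.792 in control cells (SD, n = 4 each). IGFBP6 took 23.8% ± 2.57 in knockdown and 7.25% ± 0.640 in control cells. IGFBP5 took 10.9% ± 0.799 in knockdown and 2.63% ± 0.236 in control cells. IGFBP3 took 8.51% ± 0.461 in knockdown and 2.66% ± 0.250 in control cells. IGFBP7 took 6.27% ± 0.569 in knockdown and 2.47% ± 0.313 in control cells, so each of these 4 scarce genes held a larger share in every knockdown library. The ratio of IGFBP2 to IGFBP5 was 23.2 ± 1.48 in knockdown and 96.2 ± 10.9 in control cells, and that of IGFBP2 to IGFBP4 was 4.997 ± 0.303 in knockdown and 2.95 ± 0.117 in control cells (SD, n = 4 each). The summed IGFBP level over that of IGF1R and INSR was 7.515 ± 0.422 in knockdown and 9.17 ± 0.539 in control cells. RNA levels do not give the amounts of secreted protein.

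**Figure D3:**
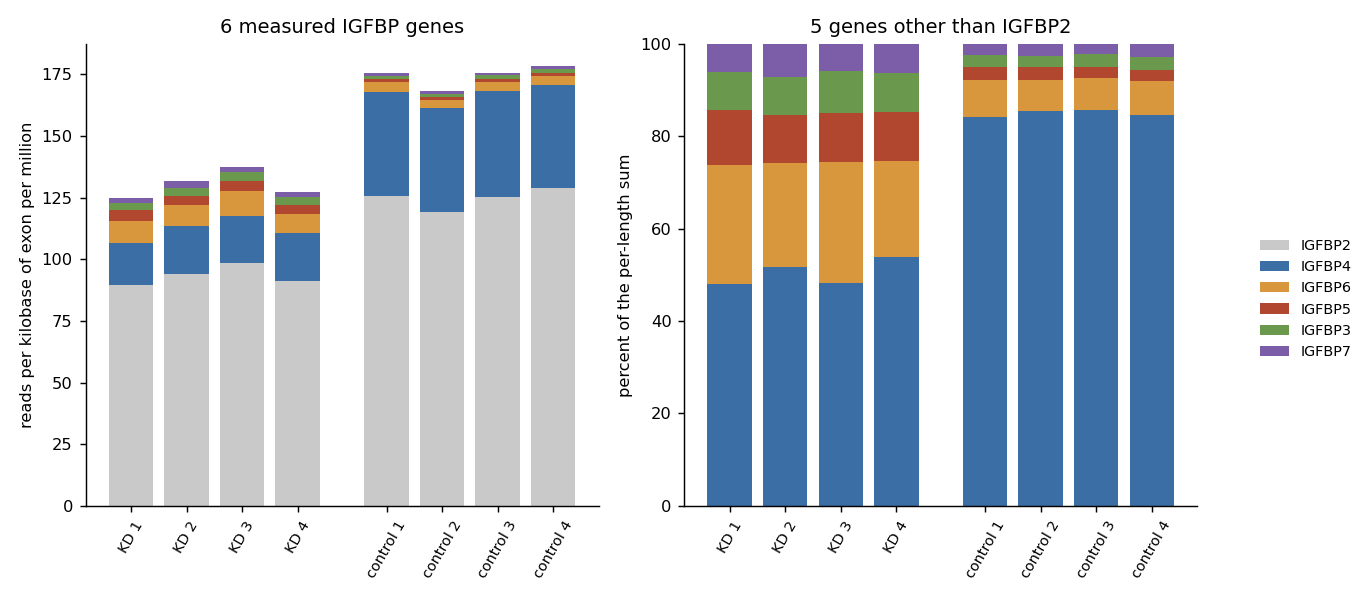
Left, summed RPKM of the 6 IGFBPs in each library, stacked by gene, knockdown libraries left and control libraries right; right, each gene's percent of the sum without IGFBP2. The knockdown bars are shorter, and IGFBP4 fills 48.0% to 53.9% of the right-hand bars in the knockdown and 84.1% to 85.8% in control libraries.

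Around these genes, 101 genes of the pathway were listed and 86 were in the table. Of these, 30 were higher, 38 lower and 18 not called, so that 79.1% were called, against 64.7% of all genes. With library totals the split was 21 higher and 50 lower. Of the ligands and other receptors, INS, IGF1 and INSRR were not among the table's genes. IGF2, the ligand of the embryo, had 25.7, 24.5, 30.5 and 23.6 normalized counts in the knockdown libraries and 34.8, 36.7, 29.7 and 27.9 in the control libraries. These groups overlapped, and the gene did not pass the test (log2 fold change -0.30, limma adjusted p = 0.167). IGF2R, which clears IGF2 from the cell surface without signalling through a kinase, rose to 3159 ± 144 in knockdown cells, against 2389 ± 119 in control cells (SD, n = 4 each; log2 fold change 0.40, SE 0.0375, limma adjusted p = 1.93e-13).

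Of 6 measured partners and proteases of the binding proteins, 3 rose and 3 fell (median log2 fold change -0.11), where 64.7% of all genes were called. With the filter of 5 CPM only 1 was higher, as ADAM12 and PAPPA2 lie below that level. The stanniocalcins inhibit the IGFBP protease PAPPA, and they moved apart. STC2 fell to 1119.7 ± 17.7 normalized counts in knockdown cells, against 1798 ± 30.2 in control cells (SD, n = 4 each; log2 fold change -0.68, limma adjusted p = 1.81e-21), while STC1 rose to 1499 ± 55.3, against 1262 ± 27.4 (0.25, limma adjusted p = 3.80e-07). HTRA1, a secreted serine protease that cuts IGFBP5, fell by 0.46 on the log2 scale (limma adjusted p = 5.79e-06). ADAM12, a protease of IGFBP3 and IGFBP5, rose at low counts, with 18.9 ± 4.49 in knockdown and 7.02 ± 2.84 in control cells (SD, n = 4 each; log2 fold change 1.36, limma adjusted p = 0.000118). PAPPA and PAPPA2, named after their values were seen because PAPPA cuts IGFBP4 and PAPPA2 cuts IGFBP3 and IGFBP5, moved apart as well. PAPPA averaged 17.1 ± 3.33 in knockdown and 24.7 ± 4.75 in control cells (log2 fold change -0.51, limma adjusted p = 0.0465), and PAPPA2 averaged 64.4 ± 9.005 in knockdown and 43.9 ± 4.96 in control cells (0.54, limma adjusted p = 0.00126; SD, n = 4 each). The PAPPA call was lost without knockdown replicate 3 (log2 fold change -0.36, limma adjusted p = 0.176). It was also lost without control replicate 1 (-0.53, limma adjusted p = 0.0619) or control replicate 4 (-0.38, limma adjusted p = 0.180).

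The 7 measured proteins that share the IGFBP domain but are not classical IGFBPs also split, with 3 higher and 3 lower. CCN1, a matricellular protein, rose to 2852 ± 71.2 normalized counts in knockdown cells, against 1785 ± 139 in control cells (SD, n = 4 each; log2 fold change 0.68, limma adjusted p = 4.80e-20). Its relative CCN2 fell by 0.13 on the log2 scale (limma adjusted p = 0.00123). CRIM1, a membrane protein that binds bone morphogenetic proteins, rose by 0.49 (limma adjusted p = 1.45e-12), and IGFBPL1 fell by 0.37 (limma adjusted p = 7.00e-10). IGFBP1, another IGFBP, and IGFALS, a partner of the binding proteins, were not among the table's genes.

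Of 18 receptor adaptors and attenuators, 4 rose, 8 fell and 6 were not called (median log2 fold change -0.10). This is 66.7% called, close to the 64.7% of all genes. With library totals 2 rose and 13 fell. IRS4, an adaptor of the same family as IRS1 and IRS2, rose more than either, to 1118 ± 26.3 normalized counts in knockdown cells, against 738 ± 4.89 in control cells (SD, n = 4 each; log2 fold change 0.60, limma adjusted p = 2.32e-17). GRB10, which binds the receptors and dampens their signal, rose by 0.27 on the log2 scale (limma adjusted p = 6.94e-09). SH2B3, an attenuator of receptor and cytokine signalling, fell by 0.53 (limma adjusted p = 7.54e-17), and DOK1, a docking protein that restrains kinase signalling, fell by 0.80 (limma adjusted p = 7.95e-09).

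All 14 measured genes of the PI3K-AKT list were called, 8 higher and 6 lower, with a median log2 fold change of 0.16. Of all genes, 64.7% were called. PIK3R1, the regulatory subunit through which PI3-kinase docks on IRS proteins, had 233, 264, 273 and 262 normalized counts in the knockdown libraries, against 581, 622, 571 and 605 in the control libraries. Every knockdown library was below every control library, and the log2 fold change was -1.20 (limma adjusted p = 2.96e-23). INPPL1, a lipid phosphatase that works against PI3-kinase, rose to 1993 ± 95.1, against 1235 ± 34.1 in control cells (SD, n = 4 each; log2 fold change 0.69, limma adjusted p = 4.58e-21). AKT1 rose by 0.38 (limma adjusted p = 1.40e-11) and PDPK1, the kinase that activates AKT, by 0.50 (limma adjusted p = 3.98e-09), both on the log2 scale. With library totals the list had 5 genes higher.

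Of 15 mTOR genes, 7 rose, 4 fell and 4 were not called (median log2 fold change 0.04), and with library totals 4 rose and 7 fell. AKT1S1, an inhibitor of mTOR complex 1 that AKT phosphorylates, rose to 1995 ± 44.3 normalized counts in knockdown cells, against 1184 ± 55.6 in control cells (SD, n = 4 each; log2 fold change 0.75, limma adjusted p = 1.07e-22). EIF4EBP2, a repressor of cap-dependent translation, fell to 4960.3 ± 117, against 6944 ± 192 in control cells (SD, n = 4 each; -0.49, limma adjusted p = 4.56e-19). TBC1D7, a subunit of the TSC complex, fell by 0.46 on the log2 scale (limma adjusted p = 1.77e-11), and RPTOR, the scaffold of mTOR complex 1, rose by 0.29 (limma adjusted p = 6.15e-07).

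Of 9 measured RAS-ERK genes, 1 rose, 3 fell and 5 were not called (median log2 fold change -0.04). MAP2K1, the kinase upstream of ERK, fell to 959 ± 28.7 normalized counts in knockdown cells, against 1505 ± 35.6 in control cells (SD, n = 4 each; log2 fold change -0.65, limma adjusted p = 1.11e-19). BRAF, a kinase that activates MAP2K1, fell by 0.36 (limma adjusted p = 1.17e-07), while NRAS, a small GTPase, rose by 0.22 (limma adjusted p = 1.50e-06), both on the log2 scale. With library totals 5 of these genes were lower. A second gene passed as higher with the filter of 5 CPM, and also without knockdown replicate 2, control replicate 1 or control replicate 4.

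The list of FOXO factors and targets had 3 genes higher, 11 lower and 1 not called of 15 measured. Of all genes, 32.3% were called higher and 32.4% lower. The list's median log2 fold change was -0.40, against 0.0013 for all genes. Whether AKT signalling had a part in these changes was not tested. TXNIP, an inhibitor of glucose uptake, fell to 121 ± 15.6 normalized counts in knockdown cells, against 547 ± 15.7 in control cells (SD, n = 4 each; log2 fold change -2.17, limma adjusted p = 3.54e-30). SESN3, a sestrin that restrains mTOR complex 1, fell by 0.82 on the log2 scale (limma adjusted p = 1.53e-16). FOXO1 itself rose to 1387 ± 36.1, against 889 ± 26.3 in control cells (SD, n = 4 each; log2 fold change 0.64, limma adjusted p = 4.04e-19). CITED2, a transcriptional coregulator, rose by 0.64 on the same scale (limma adjusted p = 1.94e-20). RNA levels say nothing of the phosphorylation through which this pathway is switched.

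**Figure D4:**
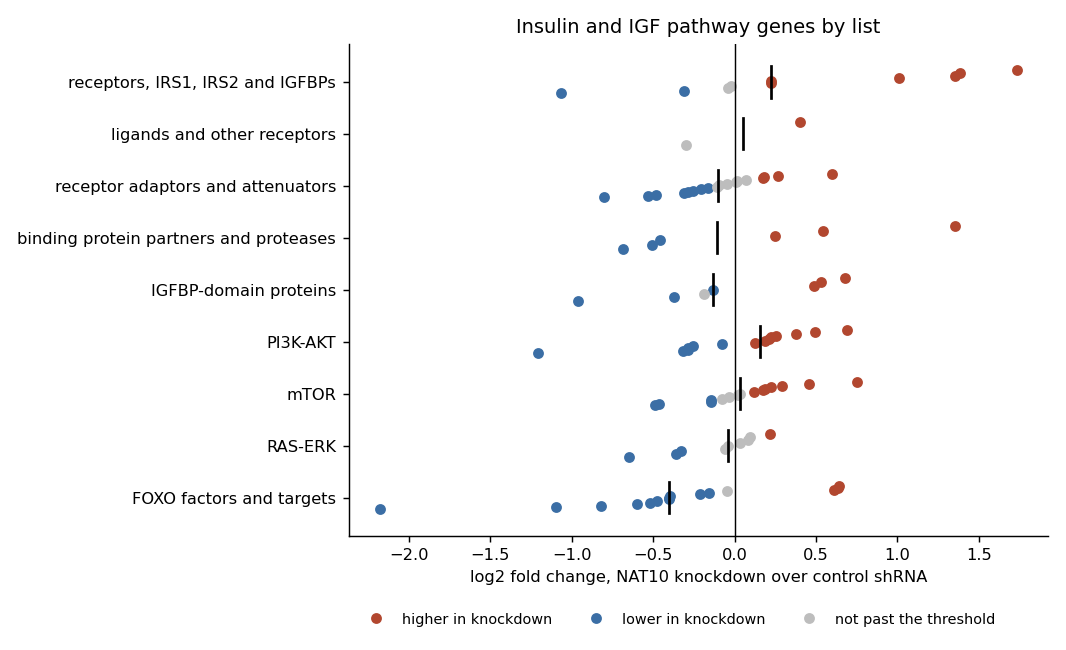
Log2 fold change, knockdown over control, of every measured gene of each list (n = 4 libraries per group), with red for genes called higher, blue for genes called lower, grey for genes not past the threshold and a black line at the list median. The FOXO list lies mostly below 0, with a median of -0.40, while the other pathway lists straddle 0.

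Some markers of other cells were also called, where 64.7% of all genes were called, 32.3% higher and 32.4% lower. Several IGFBPs are also made by fibroblasts and by differentiating cells. Of 15 fibroblast and mesenchymal markers 12 were measured, 8 higher and 1 lower in the knockdown, with summed levels of 27416 to 29289 normalized counts in knockdown and 24200 to 25010 in control libraries, and the defining markers COL3A1, DCN and LUM were not among the table's genes. Of 10 neuroectoderm markers 7 were measured, 4 higher and 1 lower, with sums of 15226 to 15992 in knockdown and 6873 to 7313 in control libraries; SOX1, ZIC1 and NEUROG2 were not among the table's genes. A single endoderm marker of 9 was measured, AFP, at 155 to 177 in knockdown and 37.5 to 49.3 in control libraries. Of 10 trophoblast and amnion markers 3 were measured, 2 higher and 0 lower (median log2 fold change 1.14), with sums of 107 to 141 in knockdown and 81.4 to 111 in control libraries. Of 8 mesoderm markers 3 were measured, 1 higher and 1 lower, with sums of 2758 to 2932 in knockdown and 2884 to 3064 in control libraries. Of the 15 pluripotency markers 12 were higher in the knockdown and none was lower. The part of these markers in the IGFBP changes was not tested.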

How the data were processed

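Poly(A) RNA-seq of 8 libraries was used, 4 per group, grouped by the sample titles. The submitters' processing notes name DESeq2 1.26.0, featureCounts 2.0.3, HISAT2 2.2.1, fastp 0.21.1 and SAMtools 1.12, with hg38. Strandedness, annotation and the order of steps are not given there or in other sources used. Although its columns are named as read counts, the deposited table holds a normalized signal (reads over a library's size factor): 100% of values were whole multiples of 1 read within 1e-06, and the factors equalled recomputed median-of-ratios factors. For each gene of the table, 4 or more libraries reach 10 reads, and scarcer genes were not analysed here. No replicates agreed within sampling noise (chi-square per gene of 1.79 to 2.52 within groups). A count of 0 would allow up to 0.193 CPM in control replicate 2.

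Symbols were found for 17532 of 17546 IDs and GENCODE 29 entries, used for lengths and positions, for 17225. limma 3.58.1 in R 4.3.3 (trended, robust) was run on log2(value + 1), group the only term, with Benjamini-Hochberg adjustment over all 17546 genes at 0.05; fold changes named log2 are on that scale, which understates changes of scarce genes, while fold values are ratios of mean normalized counts. The test was checked on simulated data in which far fewer genes changed than were called here. That check therefore does not cover changes this widespread. Alternatives were library totals, TMM, pseudocounts of 0.5 and 5, a filter of 5 CPM, the replicate block, each library left out, edgeR 4.0.16 (quasi-likelihood; 5571 genes higher and 5784 lower of 17410 kept) and DESeq2 1.42.0 on the recovered reads. The genes and lists were chosen with earlier results of these data known, so their counts are no independent evidence. Named genes are NAT10, all 10 genes and the 4 with the smallest adjusted p in each list (all where 4 or fewer were measured), besides genes overlapping them; others are marked as chosen after their values were seen, and 1 gene the rule names is not reported here. The replicate numbers do not pair the libraries.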

Additional observations from a re-analysis of the deposited data

Results flagged for a closer look

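In a group of 4 libraries, 1 library stood far from the other 3 in 7 of 98 gene and group pairs examined, where chance gives about 1 in 20. IGF2R was at 3375 normalized counts in knockdown replicate 4, above the others, and PAPPA at 12.2 in knockdown replicate 3, below the others. CITED2 was high in knockdown replicate 1, at 1904. In the control libraries, DOK1 at 149 and PAPPA at 31.8 were high in replicate 4, where STC2 was low at 1753, and SESN3 was high in replicate 3 at 529.5. None of the 10 receptor, adaptor and binding protein genes was among these. The cause of these values was not tested.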

How the results depend on the processing

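Over 16 alternatives and 45 named genes, 0 log2 fold changes that passed the threshold in either fit reversed direction. Each alternative was compared only with the limma fit described above, and changes of sign without a call in either were not counted. IGF1R, at -0.02 in that fit, ran from -0.13 (called, with library totals) to 0.0074 (not called). Of 714 log2 fold changes, 707 kept their side of the threshold. The other 7 are the calls of IGF1R and INSR gained and of POLR2B lost with library totals, and those of PAPPA lost without 1 of 3 libraries and with DESeq2 (limma or DESeq2 adjusted p from 0.0619 to 0.180). With library totals 4 of the 10 genes were lower in place of 2, as IGF1R and INSR then passed. Of the 10 genes, the filter of 5 CPM left out only IGFBP7. The summed IGFBP level changed by -19.4% with the authors' size factors in place of library totals. With the longest transcript as the length, the IGFBP2 share of that sum differed by -1.65 percentage points between knockdown and control cells (0.0860 with exon unions) and the groups no longer overlapped, and the IGFBP4 share of the other 5 by -37.0 points (-34.5 with exon unions). The replicate block called 5592 genes higher and 5625 lower, and again 6 and 2 of the 10 genes; same-numbered libraries correlated at -0.0107, -0.0376, -0.0268 and -0.133, and no library correlated best with its own number. Low depth limits the precision for scarce genes such as IGFBP7, IGF2, IRAIN, PAPPA, PAPPA2 and ADAM12.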

Other observations

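The nearest table genes on either side of each of the 10 genes were looked up after the values were seen. Of 16 such neighbours of the 8 called genes, 7 moved in the same direction, 5 in the opposite direction and 4 were not called. Their distances ran from 0 kb for POLR2B to 4091 kb for ADGRL3, both beside IGFBP7. The same-direction ones include POLR2B, which shares exon bases with IGFBP7 and whose call was lost with library totals. The opposite ones include IGFBP2 and IGFBP5, which neighbour each other and so were counted from both sides. Of all genes, 64.7% were called, 32.3% higher and 32.4% lower. IGFBP4 lies between TOP2A (25.5 kb away, log2 fold change -0.78, limma adjusted p = 2.24e-26) and TNS4 (18.1 kb away, -1.64, limma adjusted p = 1.21e-09), and all of these fell in the knockdown. IGFBP3 lies between GTF2IP13 (97.0 kb away, 0.66, limma adjusted p = 1.28e-05) and TNS3 (1353 kb away, 0.53, limma adjusted p = 3.00e-14), and all of these rose. IGFBP6 rose while SPRYD3 (18.0 kb away) fell by 0.55 on the log2 scale (limma adjusted p = 1.40e-07). No cause was tested for any of these.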
